A study of Mus musculus with 17 samples.

Results

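The genes described here were 10 components of the mammalian circadian clock, Per1, Per2, Per3, Cry1, Cry2, Arntl, Clock, Dbp, Nr1d1 and Nr1d2, taken by gene symbol from the bulk and single-nucleus expression tables. They were 10 of the 36293 genes in the bulk table and of the 36464 genes with at least 1 transcript in the retained nuclei. All mice were male C57BL/6 (C57BL/6J in the methods of the study). CUS mice went through chronic unpredictable stress for 12 days with 3 stressors a day, which began at 8 a.m., 1 p.m. and 6 p.m., the last lasting until 7 a.m. Mice were group housed, and control mice were kept in another room and gently handled. Food was removed for 1 overnight period during the stress paradigm, and whether control mice shared this is not given in the sources used here. Control and CUS mice used for behavioral tests were housed singly from 6 p.m. on day 12 for some assays and regrouped after the sucrose test. The bulk libraries were nuclear RNA of the medial prefrontal cortex (mPFC) at postnatal day 90 from 4 control and 5 CUS mice. The sNucDrop-seq libraries, which count molecules in single nuclei from droplets, came from the neocortex of 4 control and 4 CUS mice at postnatal day 80. The sample labels place tissue collection 24 h after the final stressor, whereas the methods of the study place the bulk collection after the last behavioral test. Mice lived under a light cycle of 12 h with lights on at 7 a.m. The hour of collection of each mouse was not given in the sources used here, so a difference in hour between groups was not tested, nor could the housing room be told apart from stress.

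The clock of mammalian cells is a feedback loop of transcription. CLOCK and its partner BMAL1, which Arntl encodes, bind E-box elements and activate the Per and Cry genes, whose proteins then return to the nucleus and repress that activation. The same pair drives Nr1d1 and Nr1d2, whose proteins REV-ERB alpha and beta repress Arntl through RORE elements, and Dbp, an output factor that binds D-box elements in target genes such as Per3. Transcripts of these genes rise and fall over the day in many tissues, the cortex included, and Per1 and Per2 also respond to glucocorticoids and to neuronal activity.

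Promoter sequences were printed for the Per and Cry genes in which a motif of this loop was found, since factors of the loop bind such motifs. Binding at these sites was not tested. RefSeq windows from 250 bases before to 50 bases after each annotated start (GRCm38.p6), 13 in all, were given for 9 of the 10 genes, Per2 being the one without. Both strands were searched for the E-box (CACGTG), the D-box (TTATGTAA), the RORE core (TAGGTCA) and the CRE (TGACGTCA), which were present in 7.15%, 0.938%, 2.61% and 1.79% of all 32851 windows, respectively. The 3 stretches are given 5′ to 3′ on the strand of the gene, with the motif in capitals.
Per3, chr4:151044666-151044915, minus strand, the 250 bases before the start with 2 D-boxes: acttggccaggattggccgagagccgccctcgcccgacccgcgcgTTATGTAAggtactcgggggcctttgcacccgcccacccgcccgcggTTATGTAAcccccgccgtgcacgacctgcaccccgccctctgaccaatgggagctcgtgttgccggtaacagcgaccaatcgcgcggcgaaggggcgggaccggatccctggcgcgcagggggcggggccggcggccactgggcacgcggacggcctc
Per1, chr11:69098746-69098825, plus strand, with an E-box: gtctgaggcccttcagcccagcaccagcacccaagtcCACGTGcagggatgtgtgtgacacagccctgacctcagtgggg
Cry1, chr10:85185072-85185151, minus strand, with an E-box: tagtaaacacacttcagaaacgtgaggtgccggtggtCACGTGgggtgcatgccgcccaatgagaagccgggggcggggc
The D-boxes of Per3 began 205 and 158 bases before the start, the E-box of Per1 166 bases and that of Cry1 60 bases before theirs. None of the 3 stretches overlapped an annotated exon, and the Per1 stretch lay within the span of the gene, upstream of the start of a shorter transcript. A RORE core was found 31 bases after the start in 1 Arntl window. The windows of Cry2, Clock, Dbp, Nr1d1 and Nr1d2 held none of these letters.

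Bulk libraries held 26188825 to 30525015 counted reads per mouse. After removal of likely doublets, 26698 of 40000 barcodes were retained, 1935 to 4235 per mouse, with a median of 2010 unique molecular identifiers (UMIs) and 1274 genes, and 20 barcodes occurred in more than 1 mouse. Summed markers of several cell types did not overlap between the groups in bulk: the 7 striatal markers, of which 1 was called higher, added up to 647 to 1029 CPM (counts scaled to library size) in control and 1136 to 1375 in CUS mice, the 4 Pvalb interneuron markers to 369.8 to 403 and 414 to 470.2, the 4 Vip interneuron markers to 43.4 to 48.7 and 49.8 to 61.2, and the 4 oligodendrocyte precursor markers to 92.7 to 108 and 83.5 to 92.3. Of the Pvalb, Vip and oligodendrocyte precursor markers, 0 were called. The Pvalb list held Tac1, which was also enriched in a striatal cluster of the nuclei, and the Vip list held Cck, also enriched in an excitatory cluster. The part of these genes in the sums was not tested. The 4 general inhibitory markers overlapped, with 122 to 198 in control and 111 to 171 in CUS mice, as did the 4 Sst (103 to 128 and 109 to 117) and the 4 Ndnf interneuron markers (177 to 205 and 183 to 209, with 1 called higher and 1 lower). The 6 astrocyte markers ranged from 1313 to 1689.8 in control and from 1257 to 1499.9 in CUS mice, with 2 of the 6 called lower, and the 5 excitatory markers from 989 to 1285 and from 1266 to 1345, with 2 of the 5 called higher. The 4 markers of newly formed oligodendrocytes ranged from 132 to 161 and from 117 to 137, with 2 of the 4 called lower. The 6 markers of mature oligodendrocytes ranged from 242 to 590.3 in control and from 262 to 331 in CUS mice, with 0 called. Of the claustrum markers and of the choroid plexus markers, 1 each was called lower. Among all single genes tested in bulk, 3.29% were called and 8.76% had groups that did not overlap. The part of these shifts in the values below was not tested, and in bulk fewer cells of a type and less RNA per cell cannot be told apart.

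The first comparison asked whether clock gene RNA in the mPFC differed after CUS. Per2 and Per3 were higher in CUS mice, by 1.29-fold and 1.25-fold, and no other clock gene passed the threshold. Thus 2 of the 10 genes were called at an adjusted p under 0.05 (edgeR quasi-likelihood test, Benjamini-Hochberg over 18394 genes), against 3.29% of all genes, and 1.16% of all genes were called higher. The groups did not overlap in 3 of the 10 genes, against 8.76% of all genes. An unadjusted p under 0.05 was found for 5 of the 10, against 21.5% of all genes. Among the 10 genes the log2 fold change was above 0 in 3 and below 0 in 7, with a median of -0.10, compared with 0.01 over all genes tested.

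Among the repressors of the loop, Per2 (ENSMUSG00000055866, chr1:91415982-91459324 in mm10, minus strand) stood at 57, 71.9, 71.7 and 70.4 CPM in control mice and at 99, 80.4, 83.2, 87.5 and 87.6 CPM in CUS mice. Every CUS mouse exceeded every control mouse, and control 1 was the lowest of all. The means were 67.8 ± 7.18 (SD, n = 4) and 87.5 ± 7.08 (SD, n = 5), a log2 fold change of 0.37 ± 0.08 (SE) with an adjusted p of 0.0304. The call was lost without CUS 1 (0.0582), CUS 4 (0.0807), CUS 5 (0.078) or control 2 (0.064), and with the replicate number as a block (0.104). The log2 fold change stayed between 0.29 and 0.40 over all alternatives run.

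Per3 (ENSMUSG00000028957, chr4:151003652-151044665, minus strand), the paralog whose promoter held the 2 D-boxes shown above, was at 112, 114, 111 and 110.3 CPM in control and 152, 126, 140.0, 132 and 147 CPM in CUS mice. The control mice lay close together, and all CUS mice were above them. The means of 112 ± 1.57 (SD, n = 4) and 139 ± 10.5 (SD, n = 5) gave a log2 fold change of 0.32 ± 0.06 and an adjusted p of 0.0171. Without CUS 5 the adjusted p was 0.0538, without control 2 it was 0.0551, and with the replicate number as a block it was 0.0638. Per3 lies inside Camta1 on the same strand, a gene with a median of 16287 reads per mouse. Camta1 had 511 ± 75.1 CPM in control and 581 ± 24.3 in CUS mice (log2 fold change 0.19 ± 0.09, adjusted p 0.228), and how many of its reads were counted for Per3 was not tested.

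Per1, a paralog that acute stimuli induce within a short time in many tissues, had values of 47, 57.5, 55.8 and 54.7 CPM in control mice and 49.6, 40.8, 40.8, 48.9 and 48 CPM in CUS mice. Control 1 fell among the CUS mice, while the other control mice were above all of them. The log2 fold change was -0.24 ± 0.08 (95% confidence interval -0.39 to -0.08) with an adjusted p of 0.115, so that Per1 did not pass, and its estimate had the opposite sign to those of Per2 and Per3. Cry1 and Cry2, the partners of the PER proteins, had means of 23.4 ± 2.87 and 96.8 ± 7.03 CPM in control and of 20.7 ± 1.6 and 90.6 ± 4.54 CPM in CUS mice. Neither passed (log2 fold changes of -0.18 ± 0.09 and -0.10 ± 0.06, adjusted p of 0.248 and 0.394), and the groups overlapped in both. Without control 2 the log2 fold change of Cry1 was -0.10.

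Of the activators, Clock had 137, 145, 146 and 159 CPM in control and 123, 135, 135, 129 and 133 CPM in CUS mice. All CUS mice were below all control mice, yet the log2 fold change of -0.16 ± 0.06 did not pass (adjusted p 0.12). Arntl had 87.5, 92.1, 120.0 and 67.1 CPM in control and 86.7, 84.4, 93.3, 87.1 and 86.5 CPM in CUS mice. The CUS mice were tightly grouped and lay within the range that control 3, the highest, and control 4, the lowest, spanned. The log2 fold change was -0.06 ± 0.12 (adjusted p 0.806), and it turned to 0.09 when control 3 was left out and was -0.18 without control 4.

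Nr1d1, a repressor of Arntl, had 28.8, 28, 29.9 and 29.3 CPM in control and 28.8, 26.5, 24.2, 26.5 and 25.1 CPM in CUS mice. Only CUS 1 reached the control range, and the log2 fold change of -0.15 ± 0.06 did not pass (adjusted p 0.184). Its paralog Nr1d2 averaged 122 ± 13.2 and 113 ± 4.06 CPM (log2 fold change -0.11 ± 0.07, adjusted p 0.408), and its log2 fold change was -0.17 without control 3 and -0.03 without control 4. Dbp, the output factor, had 18.6, 17.4, 18.4 and 24.8 CPM in control and 27.3, 22.3, 20.6, 20 and 19.9 CPM in CUS mice. Control 4 lay among the CUS mice, and the other control mice were below all of them. The log2 fold change was 0.15 ± 0.12 (adjusted p 0.488), and it was 0.06 without CUS 1, 0.09 without control 2 and 0.29 without control 4. The mouse with the lowest Arntl, control 4, also had the highest Nr1d2 and Clock values of all mice and the highest Dbp of the control mice, and CUS 1 had the highest Dbp, Per2 and Per3. Control 4 also had the lowest sum of the excitatory (989 CPM) and of the Ex_L2/3 markers (364 CPM) and the highest of the choroid plexus markers (5.89 CPM, against 1.69 to 2.24 in CUS mice). CUS 1 had the lowest sum of the Ex_L6 markers (876 CPM) and the highest of the striatal (1375 CPM) and endothelial markers (251 CPM). The part of these in the clock gene values of both mice was not tested. Nr1d1 and Dbp each overlap a gene on the opposite strand, Thra and Sphk2, and neither of these passed in bulk (adjusted p of 0.591 and 0.658).

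**Figure D1:**
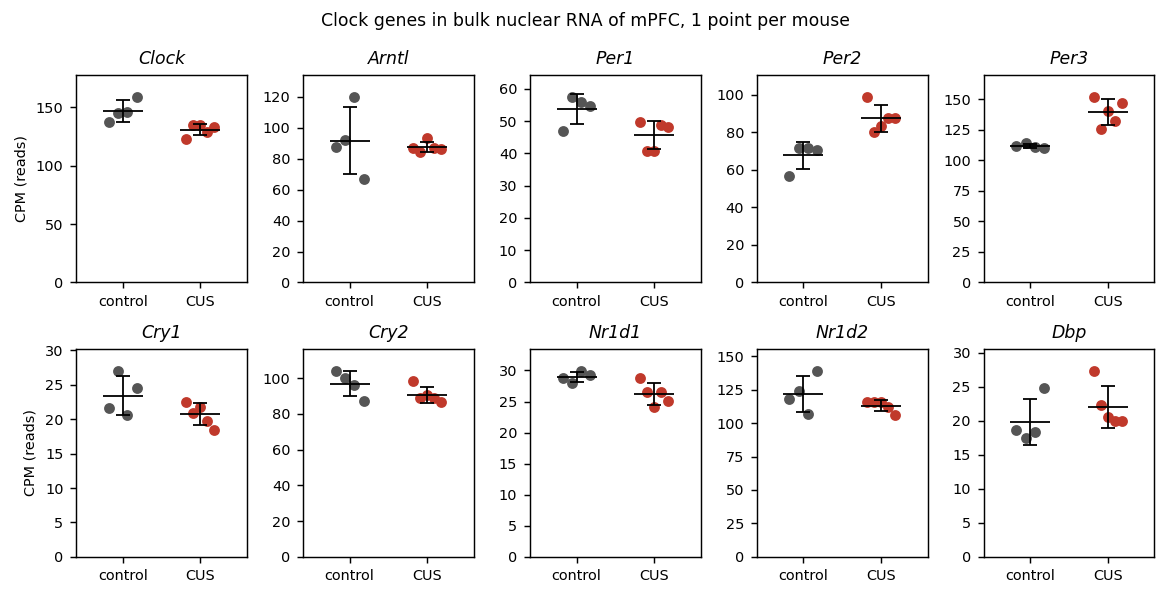
CPM of the 10 clock genes in bulk mPFC, one panel per gene with a linear axis from 0, each point a mouse and bars the mean ± SD (4 control, 5 CUS). The CUS mice lie above all control mice for Per2 (80.4 to 99 against 57 to 71.9) and Per3 (126 to 152 against 110.3 to 114) and below them for Clock (123 to 135 against 137 to 159).

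The second comparison asked the same of UMIs summed over all nuclei of a mouse. All CUS mice had less Dbp RNA and more Arntl RNA than the control mice, but no clock gene was called. The 6 genes with enough UMIs to be tested gave 0 calls at an adjusted p under 0.2 by edgeR's quasi-likelihood and likelihood ratio tests and by DESeq2, against 0.0199% of 5018 genes by the first. An unadjusted p under 0.05 was found for 2 of the 6, against 8.01% of all genes, and these 2 were the ones whose groups did not overlap, against 4.8% of all genes.

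Dbp had 59.8, 63.7, 66.8 and 61.2 CPM in control mice and 58.3, 33.8, 41.9 and 52.8 CPM in CUS mice. CUS 2 was the lowest, and CUS 1 was just below the lowest control mouse. The means were 62.9 ± 3.08 and 46.7 ± 11 (SD, n = 4 each), a fold of 0.746 and a log2 fold change of -0.42 ± 0.14 (95% confidence interval -0.71 to -0.14) with an adjusted p of 0.596. With no filter on low counts the adjusted p was 0.107, which passes 0.2, as did 0.847% of all genes in that fit. Striatal-like nuclei, which had the second highest Dbp level of the named classes, made up 7.4 to 9.92% of the nuclei in control and 2.46 to 8.8% in CUS mice, and Astrocyte-like nuclei, with the highest level, 3.09 to 6.56% and 3.3 to 8.44%. In excitatory nuclei the log2 fold change was -0.42. The part of the class shares in these values was not tested.

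Arntl, which peaks at the opposite time of day from Dbp in many tissues, had 64.1, 62.7, 65.5 and 63.3 CPM in control and 67, 77.2, 74.4 and 82 CPM in CUS mice. All CUS mice were above the narrow control range, CUS 1 by the least. The log2 fold change was 0.23 ± 0.09 (95% confidence interval 0.06 to 0.41, 1.18-fold), with an adjusted p of 0.596. Without CUS 2 it was 0.24 with an adjusted p of 0.185, below the threshold. In that fit Dbp had -0.29 with an adjusted p of 0.202, and the share of all genes called is not given here.

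For the other tested genes the groups overlapped. Clock averaged 192 ± 7.33 CPM in control and 193 ± 13.4 in CUS mice, a log2 fold change of 0.00 with a 95% confidence interval of -0.16 to 0.17. Per3 averaged 74 ± 4.78 and 73.4 ± 7.68 CPM (-0.01, -0.20 to 0.19), and Cry2 96.7 ± 12 and 97.7 ± 7.86 CPM (0.01, -0.20 to 0.21). Nr1d2 averaged 56.9 ± 7.94 and 54 ± 11.1 CPM (-0.08, -0.37 to 0.21). The signs for Per3 and Cry2 changed with the processing, that of Nr1d2 turned to 0.01 without CUS 3 while its value was -0.22 without CUS 1, and the intervals of all 3 held changes of either direction.

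Per1, Per2, Cry1 and Nr1d1 had too few UMIs for the filter, with 965 to 1706 in total, and were compared by two-sided exact permutation tests, in which 4 against 4 mice cannot give less than 0.0286. Per2 had 17.6, 23.4, 24.8 and 23.3 CPM in control and 43.3, 36.7, 22.4 and 31.4 CPM in CUS mice. CUS 3 lay among the control mice and the other CUS mice above them, a difference of mean log2 CPM of 0.56 (exact permutation p 0.114). Per1 gave 25.5 ± 4.06 and 34.6 ± 9.58 CPM, with a difference of 0.42 (exact permutation p 0.114). Cry1 gave 14.7 ± 1.07 and 18.6 ± 4.47 CPM (0.30, exact permutation p 0.171) and Nr1d1 24.5 ± 5.02 and 26.5 ± 8.34 CPM (0.07, exact permutation p 0.771). Single mice weighed on these differences: without CUS 1 that of Per1 was 0.24 and that of Cry1 0.18, without CUS 3 that of Cry1 was 0.47, and that of Nr1d1 ran from -0.08 without control 1 to 0.32 without CUS 2. With no filter on low counts, edgeR's quasi-likelihood test called Per2 with a log2 fold change of 0.56 and an adjusted p of 0.0474, whereas the filter at 1% of nuclei gave 0.54 and 0.638.

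**Figure D2:**
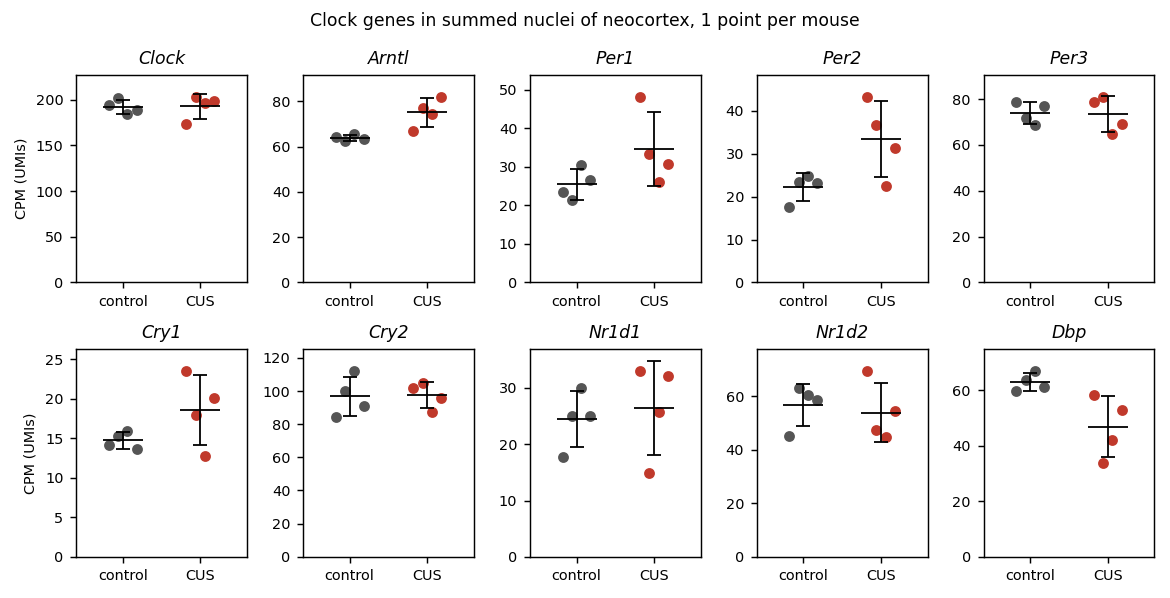
CPM of the 10 clock genes in UMIs summed over all retained nuclei of a mouse, one panel per gene with a linear axis from 0, each point a mouse and bars the mean ± SD (4 control, 4 CUS). Dbp is lower (33.8 to 58.3 against 59.8 to 66.8) and Arntl higher (67 to 82 against 62.7 to 65.5) in all CUS mice.

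Bulk and nuclei came from different mice, ages and dissections, and the difference between them was not tested. Per2 had a log2 fold change of 0.37 in bulk and 0.54 in nuclei with the filter at 1% of nuclei, both above 0. Per3 had 0.32 in bulk and -0.01 in nuclei. For Per1 the values were -0.24 and 0.40, for Cry1 -0.18 and 0.29, for Arntl -0.06 and 0.23, for Nr1d1 -0.15 and 0.08, and for Dbp 0.15 and -0.42. The nuclei values of Per1, Cry1 and Nr1d1 also used the filter at 1% of nuclei. These 5 genes thus had estimates of opposite sign in bulk and nuclei, and none of them was called in either at the settings of these fits. Per3 and Cry2 also had opposite signs, with nuclei values near 0. As given above, leaving out single mice turned the sign of Arntl in bulk and of the Nr1d1 difference in nuclei. Clock, Cry2 and Nr1d2 had -0.16, -0.10 and -0.11 in bulk and 0.00, 0.01 and -0.08 in nuclei.

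**Figure D3:**
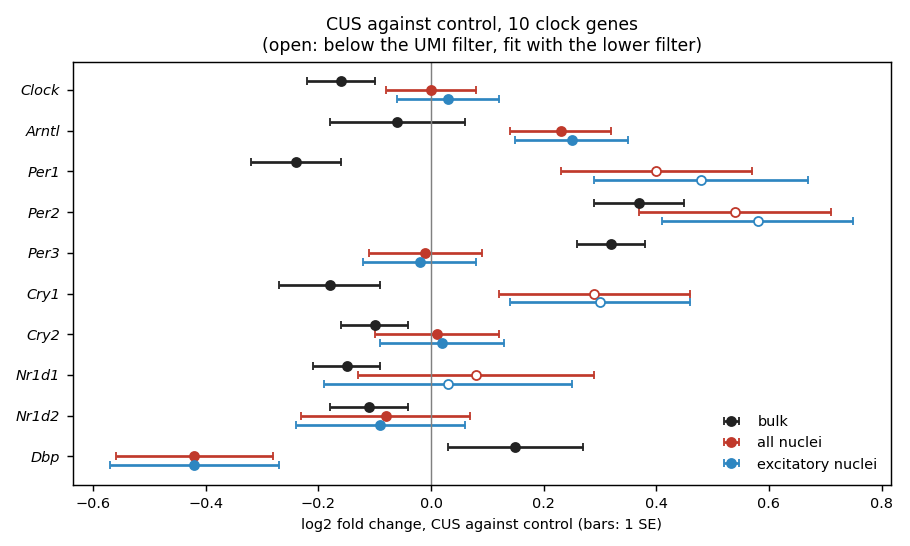
Log2 fold change (CUS over control) of each clock gene, with bars of ±1 SE, in bulk, in all nuclei and in excitatory nuclei; open symbols are genes under the UMI filter, fitted with the filter at 1% of nuclei. Per2 is above 0 in all 3 (0.37, 0.54 and 0.58), while Dbp is above 0 in bulk (0.15) and below 0 in nuclei (-0.42 and -0.42).

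Nuclei were then grouped by clustering, and clusters were named from marker genes only where the markers allowed it, with the ending -like. The 17772 excitatory nuclei came from clusters with the excitatory marker Slc17a7 in at least 20% of nuclei, and at least 2 times the share with Gad1 or Gad2. Claustrum-like nuclei were among them. In these excitatory nuclei 0 of 6 tested clock genes were called by any of the 3 tests, against 0.0375% of 5332 genes, and 2 of 6 had an unadjusted p under 0.05, against 9.6%. Dbp had 50.7, 56.1, 57.8 and 52.9 CPM in control and 48.5, 28.9, 35.8 and 48.3 CPM in CUS mice, and Arntl had 69.1, 67.4, 68 and 66.3 CPM in control and 70, 83.9, 82.2 and 86.8 CPM in CUS mice. As over all nuclei, the groups did not overlap in either gene, against 5.4% of all genes. The log2 fold changes were -0.42 ± 0.15 and 0.25 ± 0.10, both with an adjusted p of 0.512. That of Arntl was 0.25 with an adjusted p of 0.195 without CUS 2, a fit whose share of all genes called is not given here. Per2 had a difference of mean log2 CPM of 0.60 (exact permutation p 0.0571) and Per1 of 0.48 (exact permutation p 0.143). Cry1 had a difference of 0.32 (exact permutation p 0.114) and Nr1d1 of -0.02 (exact permutation p 0.971). Clock, Cry2, Per3 and Nr1d2 had log2 fold changes of 0.03, 0.02, -0.02 and -0.09, with adjusted p of 0.921, 0.956, 0.95 and 0.837 and overlapping groups, and that of Nr1d2 ran from -0.22 without CUS 1 over -0.18 without control 1 to -0.00 without CUS 2. With no filter on low counts, Per2 (0.58, adjusted p 0.0511), Per1 (0.49, 0.186) and Dbp (-0.45, 0.173) passed, as did 0.519% of 35081 genes.

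Whether single classes differed was asked in 27 classes of over 200 nuclei, 13 of them named, taken from the same 8 mice. Of 115 pairs of a clock gene and a class that could be tested, 0 were called by the quasi-likelihood test, against 0.102% of all 125864 gene and class pairs by the same test. DESeq2 called 0 and the likelihood ratio test 1, and the share of all pairs called by these tests is not given here. An unadjusted p under 0.05 was found for 6 of the 115 pairs by the quasi-likelihood test, against 5.99% of all pairs. Dbp was tested in 10 classes and its log2 fold change was below 0 in 9 of them, from -0.67 to 0.47 with a median of -0.34. The exception was the Claustrum-like class. Arntl was tested in 18 classes and was above 0 in 11, from -0.56 to 0.71 with a median of 0.10. Cry2, Clock, Nr1d2 and Per3 had medians of -0.06, 0.00, -0.03 and -0.05 over 24, 25, 19 and 18 classes. Per2 passed the UMI filter in 1 class, an unnamed cluster led by Angpt1 with 24 Per2 UMIs (-0.64 ± 0.70, adjusted p 0.999), and Per1, Cry1 and Nr1d1 passed in none.

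The Ex_L2/3-like nuclei, which carry markers of upper-layer projection neurons, numbered 3699 and held the smallest adjusted p of these pairs. Dbp had 58.7, 77.8, 75.7 and 55.5 CPM in control and 53.8, 36.7, 38 and 58.1 CPM in CUS mice there. CUS 4 lay within the control range, and CUS 2 and CUS 3 were far below it. The log2 fold change was -0.52 ± 0.18 (95% confidence interval -0.88 to -0.16) with an adjusted p of 0.296, while 0.967% of the 5378 genes tested in this class were called. The likelihood ratio test gave an adjusted p of 0.189, and leaving out CUS 2 gave -0.45 with 0.186. The share of all genes called in this class by the likelihood ratio test or without CUS 2 is not given here. Arntl had 90.7, 66.6, 79.8 and 64.5 CPM in control and 92, 100.3, 98.1 and 104 CPM in CUS mice. All CUS mice were above the control mice, control 1 being close to CUS 1, and 5.52% of the genes in this class had groups that did not overlap. The log2 fold change was 0.39 ± 0.15 with an adjusted p of 0.329, and without CUS 2 it was 0.38 with 0.181.

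Per2 was under the UMI filter in the Ex_L2/3-like nuclei, with 254 UMIs in all and 9 to 58 per mouse. Its values were 12, 13.8, 23.7 and 18 CPM in control and 49.5, 34.2, 28 and 33.4 CPM in CUS mice. Every CUS mouse was above every control mouse (exact permutation p 0.0286, the smallest possible). The 5.52% of genes without overlap given above covers only genes that passed the UMI filter. The share among genes under it is not given here. With the filter at 1% of nuclei the log2 fold change was 1.02 ± 0.24, a fold of 2.03 with an adjusted p of 0.0846, and 0.618% of 12939 genes were called in that fit. It stayed between 0.84 and 1.30 when single mice were left out. The adjusted p then remained under 0.2 without control 3 (0.0599), control 4 (0.18), CUS 2 (0.0512), CUS 3 (0.104) or CUS 4 (0.183) and exceeded it without control 1 (0.242), control 2 (0.425) or CUS 1 (0.467). This filter was chosen after seeing the data. With it, Per2 had a log2 fold change of 1.02 ± 0.37 in Ex_L4-like (adjusted p 0.486), 0.86 ± 0.33 in Striatal-like (0.988), 0.63 ± 0.35 in Ex_L5/6-like (0.947), 0.46 ± 0.29 in Ex_L6-like (0.876) and 0.05 ± 0.43 in Ex_L5-like nuclei (0.993). None of these passed, and whether they differed from the Ex_L2/3-like nuclei was not tested. These classes held the next most Per2 UMIs of the named classes, 61 to 160 each. Values of the remaining classes with this filter are not given here.

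Whether the effect of CUS differed between excitatory and non-neuronal nuclei could be tested for Clock, Cry2, Dbp and Per3. The difference in log2 fold change for Dbp was -0.19 ± 0.21 with an adjusted p of 0.957, and those of the other 3 genes were 0.01 to 0.09. By edgeR's quasi-likelihood test 0 of the 4 were called and 0 had an unadjusted p under 0.05, against 4.86% of all genes, and 0 of 2755 genes were called in all.

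**Figure D4:**
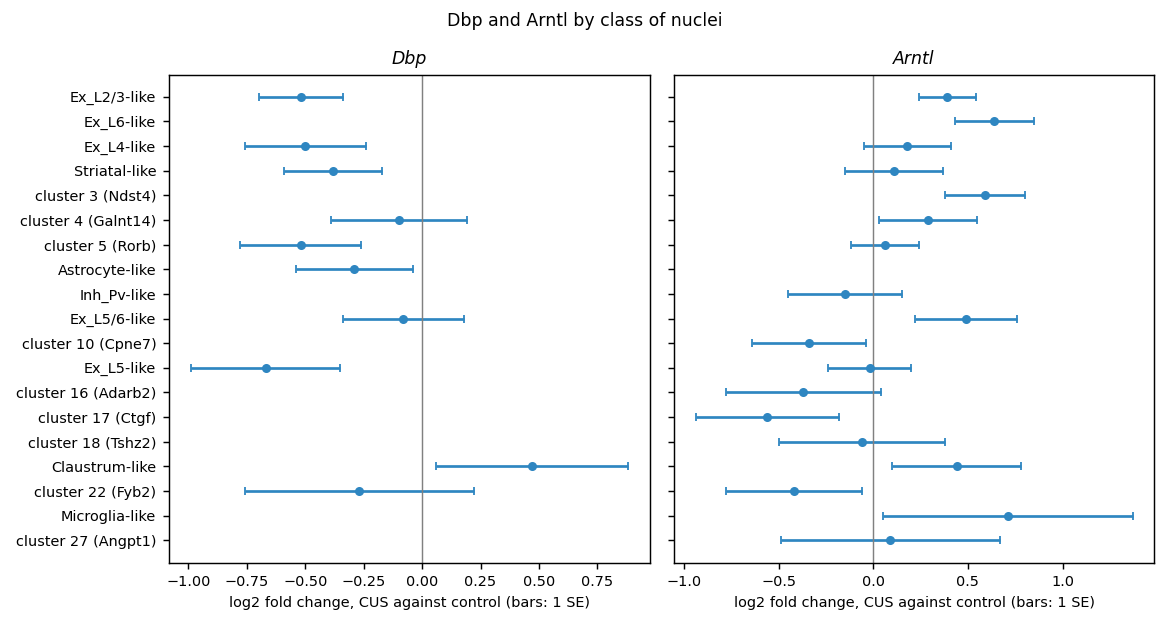
Log2 fold change (CUS over control) with bars of ±1 SE of Dbp and of Arntl in each class of nuclei in which the gene was tested. Dbp lies below 0 in 9 of 10 classes and Arntl above 0 in 11 of 18.

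The levels of the clock genes across the 13 named classes were described as CPM over all 8 mice. Astrocyte-like nuclei had the highest level of Dbp, Nr1d1, Nr1d2, Per3 and Cry2 and the lowest of Clock. Dbp was at 212 ± 67 CPM (SD, n = 8) there, followed by Striatal-like nuclei with 121 ± 27.7, Ex_L4-like nuclei with 77.3 ± 29.2 and, at the end, Inh_Sst-like nuclei with 20.2 ± 10.3. The steps from Astrocyte-like to Striatal-like and from these to Ex_L4-like nuclei were larger than the SD, and no later step was. Nr1d1 was at 102 ± 30.5 CPM in Astrocyte-like, 49.8 ± 31.8 in OPC-like (oligodendrocyte precursor) and 12.1 ± 7.01 in Inh_Pv-like nuclei, and Nr1d2 went from 111 ± 32.3 in Astrocyte-like to 35.3 ± 32.2 in Oligodendrocyte-like nuclei with no step above the SD.

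Per3 had 201 ± 45.2 CPM in Astrocyte-like nuclei, then 109.9 ± 30.9 in Claustrum-like and 79.6 to 99.2 in Ex_L2/3-like, Ex_L4-like, Ex_L5/6-like and Ex_L6-like nuclei. In Ex_L5-like nuclei it was at 10.5 ± 6.85 CPM, from 35 UMIs, and in Inh_Pv-like and Inh_Sst-like nuclei at 18.2 ± 7.77 and 22.6 ± 9.65. Ex_L5-like nuclei thus differed from the other named excitatory classes by far more than the spread between mice. Levels in the unnamed excitatory clusters are not given here. Camta1, in which Per3 lies, had 277 CPM in Ex_L5-like, 195 in Astrocyte-like and 402 in Inh_Pv-like nuclei and did not follow this order. Cry2 went from 201 ± 46.7 CPM in Astrocyte-like over 133 ± 24.9 in Ex_L4-like and 105 ± 15.5 in Ex_L2/3-like nuclei, steps above the SD, to 43.4 ± 16.1 in OPC-like nuclei.

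The activators had other orders. Clock was at 301 ± 63.2 CPM in Oligodendrocyte-like, 271 ± 96.1 in OPC-like and 105 ± 18.1 in Astrocyte-like nuclei, and the only step above the SD was the last, from Ex_L2/3-like nuclei (177 ± 16.8). Arntl was highest in Ex_L4-like nuclei (104 ± 27.4 CPM) and lowest in OPC-like nuclei (23 ± 34, from 8 UMIs), with no step above the SD. For the less abundant Per1, Per2 and Cry1 no neighbouring classes differed by more than the SD. Per1 ranged from 43.5 ± 12.6 CPM in Striatal-like to 18.6 ± 18.1 in Oligodendrocyte-like nuclei. Per2 ranged from 55.8 ± 18.5 in OPC-like to 3.84 ± 7.61 in Oligodendrocyte-like nuclei, which held 5 UMIs. Cry1 ranged from 31.1 ± 26.6 in OPC-like to 1.94 ± 5.48 in Microglia-like nuclei, which held 1 UMI. Slc17a7, an excitatory marker that other classes should lack, was at 175 to 338 CPM in the excitatory classes, 51.3 in Astrocyte-like, 11.1 in Inh_Sst-like and 149.8 in Microglia-like nuclei. How far free RNA, doublets or misassigned nuclei contributed to the levels of the clock genes was not tested.

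The likeness of these patterns was given by Pearson's r of log2 of the mean CPM over the 13 classes, which share libraries and mice. Dbp and Nr1d1 were most like each other (r = 0.85), Cry2 and Arntl likewise (0.76). Per3 and Per2 were most like Dbp (0.75 and 0.63), Per1 most like Arntl (0.75), Nr1d2 most like Nr1d1 (0.74) and Cry1 most like Nr1d2 (0.51). Clock was like none, with its highest r at -0.03, and least like Cry2 (-0.67).

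**Figure D5:**
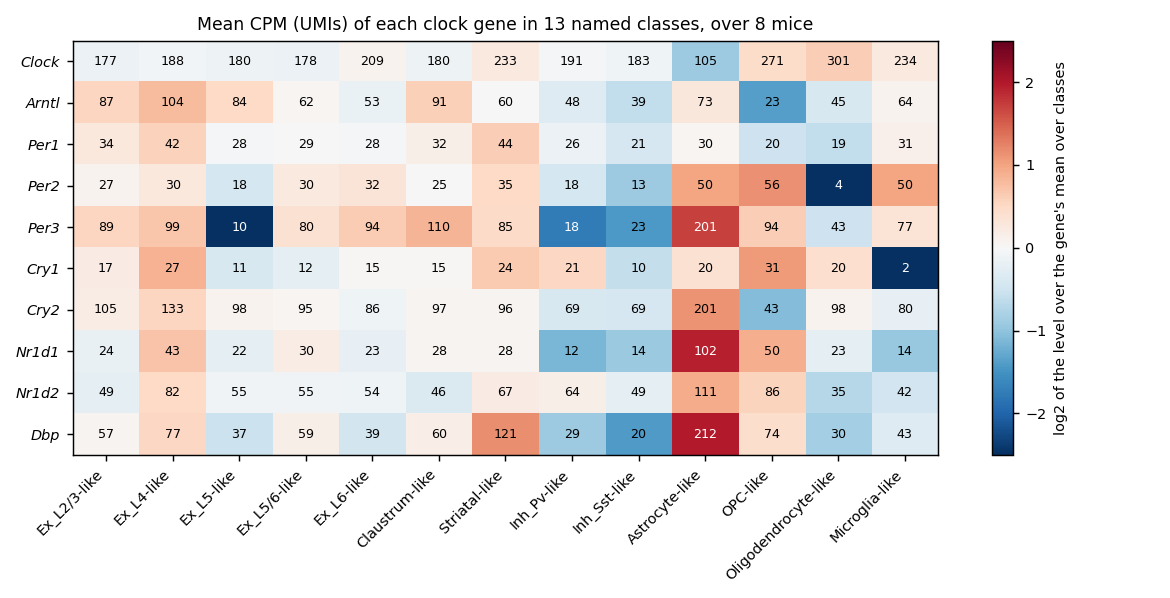
Mean CPM over 8 mice (numbers) of each clock gene (rows) in the 13 named classes (columns); the color is log2 of the level over the gene's mean over classes. The Astrocyte-like column is the highest for Dbp (212), Per3 and Cry2 (201 each), Nr1d2 (111) and Nr1d1 (102) and the lowest for Clock (105).

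Another 23 genes of the clock network were examined as a list: partners and regulators of the core loop, the PAR bZIP factors related to Dbp with their opponent Nfil3, enzymes that modify clock proteins, and outputs. In bulk all 23 were tested, with a median log2 fold change of -0.01, and 2 were called against the 3.29% given above. Bhlhe40, a repressor that competes at E-boxes, had 27 to 33.1 CPM in control and 33.6 to 47.3 in CUS mice (log2 fold change 0.37 ± 0.09, adjusted p 0.0495). Gsk3b, a kinase that phosphorylates clock proteins, averaged 243 ± 6.74 CPM in control and 211 ± 6.14 in CUS mice (-0.21 ± 0.05, adjusted p 0.0397). Next by p, and not called, were Nfil3, which represses at D-boxes (-0.44 ± 0.13, adjusted p 0.0736), Wee1, a cell cycle kinase under clock control (0.24 ± 0.08, 0.11) and the Arntl paralog Arntl2 (0.16 ± 0.05, 0.116).

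In all nuclei 13 of the 23 were tested, with a median of -0.08, and 0 were called by the quasi-likelihood test, against 0.0199% of all genes. Usp2, a deubiquitinase under clock control, had 143 ± 9.24 CPM in control and 118 ± 4.77 in CUS mice (-0.27 ± 0.08, adjusted p 0.596). Cipc, an inhibitor of CLOCK, and Npas2, its paralog, had log2 fold changes of -0.23 ± 0.09 and 0.19 ± 0.09, both with an adjusted p of 0.596. In excitatory nuclei 14 were tested and 0 called, against 0.0375% of all genes, with a median of -0.07. The smallest p were those of Usp2 (-0.29 ± 0.09, adjusted p 0.512), Npas2 (0.25 ± 0.09, 0.512) and the kinase Csnk1d (0.35 ± 0.18, 0.539).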

How the data were processed

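RNA from nuclei was measured by stranded bulk RNA-seq of mPFC and by sNucDrop-seq of neocortex. The bulk values are raw read counts per gene that the authors made with STAR on mm10 from uniquely mapped reads and an in-house counting script; whether counting used strand or introns is not given in the sources used here. The nuclei values are UMI counts per gene and barcode that the authors made on mm10 with Gencode annotation from exonic and intronic reads on the predicted strand. The authors had 2 batches of nuclei, which the labels do not give, so no batch term was fitted.

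Retained nuclei had 600 to 5000 genes, a mitochondrial share under 5% and a Scrublet score (scanpy 1.11.5) of at most 0.2. Of 31486 nuclei that passed the first filters, 15.2% were above that score. Clusters came from Seurat 5.3.0 (2000 variable genes, 50 components, resolution 1) and were named from fixed marker lists. Counts were tested in edgeR 4.0.16 (R 4.3.3) by its quasi-likelihood test after TMM normalization: bulk genes after filterByExpr at a false discovery rate of 0.05, nuclei as sums per mouse over genes whose summed UMIs exceeded 10% of the number of nuclei, at 0.2. CPM use TMM factors. The 95% confidence intervals are the estimate ± 1.96 SE, without widening for the small number of mice, and are therefore somewhat narrow. Alternatives were the likelihood ratio test, DESeq2 1.42.0, no TMM, no filter, a replicate block, 1 surrogate variable (sva 3.50.0), leaving out each mouse, at least 1000 genes per nucleus, no doublet filter and resolution 0.6 or 1.5, and, chosen after seeing the data, a filter at 1% of nuclei. On simulated data with 200 genes changed by 1 on the log2 scale, the bulk test (18394 genes) recovered 83.5% and that on all nuclei (5018 genes) 99.5%, and unchanged genes made up 10.2% and 21% of their calls. By the likelihood ratio test and DESeq2, unchanged genes made up 20.1% and 17.2% of bulk calls and 24.6% and 29.2% of nuclei calls. The largest changes of tested clock genes were smaller, 0.37 in bulk and -0.42 in all nuclei, and recovery of such changes was not simulated.

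The 10 genes, the other clock genes and the markers were chosen with earlier results of these data known. The text names all 10 genes in every main comparison and, of the other clock genes, those called and up to 3 more with the smallest p. The p-values measure the spread between mice. Pairs of libraries within a group differed by more than sampling noise (chi-square per degree of freedom 2.67 to 24.4).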

Additional observations from a re-analysis of the deposited data

Results flagged for a closer look

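In 60 groups of 4 or 5 mice, over the 10 genes in bulk, in all nuclei and in excitatory nuclei, 4 single mice stood apart from the rest of their group by Dixon's criterion at 95%, where chance gives about 1 in 20 groups. In bulk, Per2 was at 57 CPM in control 1, below the 70.4 to 71.9 of the other control mice, and Dbp was at 24.8 CPM in control 4, above the 17.4 to 18.6 of the others. In excitatory nuclei, Clock was at 166 CPM in CUS 1, below 194 to 196 in the others, and Nr1d2 was at 43 CPM in control 1, below 56.8 to 58.8.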

How the results depend on the processing

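The count of clock genes called in bulk (2) was 0 with the replicate number as a block and 0 to 2 with single mice left out. Under the replicate block Per2 had a log2 fold change of 0.37 (adjusted p 0.104) and Per3 of 0.29 (adjusted p 0.0638). Whether the numbers pair the mice is not given in the sources used here. Same-numbered mice correlated at 0.03 to 0.23 in bulk and at -0.45 to 0.4 in nuclei, and each number matched its own best in 2 of 4 and 1 of 4 cases. So few values cannot decide it. The count of 0 in all nuclei became 2 with no filter on low counts and was 0 to 1 with single mice left out, and that of 0 in excitatory nuclei became 3 and 0 to 1. For pairs of a gene and a class, the count of 0 became 1 with no filter, 1 with the likelihood ratio test, 1 with the filter at 1% of nuclei, and 0 to 2 with single mice left out. The share of all genes called with single mice left out is not given here. The cause of these changes in count was not tested. Filters change which genes are tested, and the unadjusted p changed as well. For Per2 in all nuclei that of edgeR's quasi-likelihood test was 0.00836 with the filter at 1% of nuclei and 0.000135 with no filter. The count of 0 for the difference between excitatory and non-neuronal nuclei stayed at 0 in all alternatives run.

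The sign turned only for estimates near 0. Per3 in all nuclei was 0.04 with 1 surrogate variable, 0.02 with at least 1000 genes, 0.01 with no TMM and -0.05 to 0.05 without single mice, and in excitatory nuclei 0.01 with no TMM and -0.06 to 0.03 without single mice. Cry2 in all nuclei was -0.02 with at least 1000 genes, -0.03 with the filter at 1% and with no doublet filter, -0.01 with no filter and -0.05 to 0.09 without single mice, and in excitatory nuclei -0.01 with the filter at 1%, -0.02 with no doublet filter, -0.01 with no filter and -0.03 to 0.10 without single mice. Leaving out single mice gave -0.18 to 0.09 for Arntl in bulk, -0.22 to 0.01 for Nr1d2 and -0.08 to 0.32 for Nr1d1 in all nuclei, and -0.01 to 0.08 for Clock in excitatory nuclei. Genes with few UMIs per mouse, Per1, Per2, Cry1 and Nr1d1 above all, limit what the nuclei can show.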
